A study of Mus musculus with 4 samples.

Results

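Mast cell and basophil genes were followed through 4 RNA-seq libraries of cultured mouse macrophages. The group was set by name as 10 genes, Cma1, Mcpt4, Cpa3, Tpsb2, Kit, Fcer1a, Ms4a2, Gata2, Hdc and Mcpt8, out of the 34745 genes in the count table. Of the 10 genes, 9 had counts in every library and 7 passed the filter on low counts. Their summed counts were 1894 and 1689 for WT and 859 and 1083 for KO, which was between 0.00514% and 0.0111% of a library.

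The libraries came from 2 genotypes with 2 samples each, numbered 1 and 2. Those called WT were the floxed controls, G3bp1 f/f, and those called KO had the genotype G3bp1mac-/-, the same floxed allele combined with Lyz2-Cre. All cells were grown in DMEM with fetal bovine serum, and the labels give no stimulus, age or sex. Lyz2-Cre acts in monocytes, macrophages and granulocytes, and the sources used here do not say whether the WT mice carried it, whether animals were pooled, or that samples of a genotype were separate cultures. The p-values therefore measure the spread between these samples, which may be technical. The study's text calls the cells bone marrow-derived macrophages, while the labels say only macrophage.

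The libraries held between 16724241 and 19747909 counts. The targeted gene G3bp1 was measured at 104 and 180 CPM for WT and at 70.1 and 117 CPM for KO, so the genotypes overlapped and the whole-gene level did not check the labels, although log2 ratios inside numbers 1 and 2 were -0.57 and -0.63. Directions given for KO rest on those labels. Macrophage markers summed to between 22163 and 27956 CPM (counts scaled to the size of each library, adjusted by TMM), whereas the mast cell and basophil genes summed to 117 and 106 CPM in WT and 46.1 and 55.0 CPM in KO.

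Mast cells are tissue-resident granulocytes that depend on KIT, the receptor for stem cell factor, and carry the high-affinity IgE receptor, whose crosslinking by allergen releases granules. Mouse mast cells of connective tissue store chymases, tryptases, carboxypeptidase A3 and histamine, whereas those of mucosa carry other chymases. Basophils are their circulating relatives, share the IgE receptor and histamine synthesis, and contain proteases of their own. Transcription factors of the GATA family are known to act in both cell types.

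The genes encoding granule proteases and the IgE-binding receptor chain were 1.74-fold to 2.93-fold lower in KO than in WT as estimated by the fit, and the libraries of the 2 genotypes did not overlap. These were Cma1, Mcpt4, Tpsb2, Cpa3 and Fcer1a. Kit and Hdc overlapped between the genotypes. Gata2 and Ms4a2 had fewer than 10 counts in each library, and Mcpt8 had none. With genotype as the only term, none of the differences passed the threshold of edgeR's quasi-likelihood test at 2 libraries per genotype. Other tests, and this test with the replicate number as a block, called some of these genes.

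The promoter windows below are shown because Mcpt4, Cpa3, Fcer1a and Cma1 had lower levels in KO together, and because GATA factors are known regulators of mast cell genes. Each run is the 250 bases before the RefSeq start site on GRCm38, written 5′ to 3′ along the gene. Capitals mark a GATA-type motif, AGATAA or TGATAA on either strand.
Mcpt4 (chr14:56062311-56062560, strand minus): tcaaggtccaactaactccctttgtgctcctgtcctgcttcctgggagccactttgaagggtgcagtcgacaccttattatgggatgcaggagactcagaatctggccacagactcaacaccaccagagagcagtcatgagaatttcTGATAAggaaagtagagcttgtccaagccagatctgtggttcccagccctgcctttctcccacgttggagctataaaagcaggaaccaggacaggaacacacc
Cpa3 (chr3:20242182-20242431, strand minus): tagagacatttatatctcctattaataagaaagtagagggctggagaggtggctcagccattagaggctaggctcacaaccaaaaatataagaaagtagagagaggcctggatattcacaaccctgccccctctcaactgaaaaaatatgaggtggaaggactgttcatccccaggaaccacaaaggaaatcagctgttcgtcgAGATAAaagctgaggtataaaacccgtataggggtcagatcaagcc
Fcer1a (chr1:173227230-173227479, strand minus): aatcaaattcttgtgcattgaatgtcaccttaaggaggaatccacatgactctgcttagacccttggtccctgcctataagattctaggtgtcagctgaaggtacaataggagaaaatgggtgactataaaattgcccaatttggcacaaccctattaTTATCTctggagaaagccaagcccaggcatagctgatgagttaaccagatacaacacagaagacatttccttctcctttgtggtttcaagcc
Cma1 (chr14:55944676-55944925, strand minus): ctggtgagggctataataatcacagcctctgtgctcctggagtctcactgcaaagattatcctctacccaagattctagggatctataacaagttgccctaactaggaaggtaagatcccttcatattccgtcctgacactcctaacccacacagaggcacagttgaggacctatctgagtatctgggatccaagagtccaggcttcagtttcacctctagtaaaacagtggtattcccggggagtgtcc

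The windows of Mcpt4, Cpa3 and Fcer1a each held 1 such motif, beginning 103, 46 and 92 bases before the start site. The Cma1 window held none. Of the 10 genes, 9 had an entry, and 4 of these 9 held the motif, the other being Ms4a2 with 3 matches. Across all 32851 windows of the same length, 16.6% held it. Kit and Gata2 each had an additional window, also without the motif, so the 9 count genes rather than windows. The E-box CANNTG was found in the windows of 5 of the 9 genes and in 66.2% of all windows. An E-box can share its last letters, TG, with the TGATAA form. A match describes the letters only. Tpsb2 had no entry.

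Cma1 encodes a chymase, a protease of mast cell granules. It lies on chromosome 14 from 55941453 to 55944661 on the minus strand of GRCm38, with 5 exons in its principal transcript. WT libraries gave 549 and 396 counts, or 33.8 and 24.8 CPM, and KO libraries gave 175 and 214 counts, or 9.38 and 10.9 CPM. Both WT libraries lay above both KO libraries, with means of 29.3 ± 6.35 CPM and 10.1 ± 1.05 CPM (SD, n = 2 each). On the log2 scale KO differed from WT by -1.53 (SE 0.27, 95% confidence interval -2.21 to -0.86), for which edgeR's quasi-likelihood test gave an adjusted p of 0.251.

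Mcpt4 encodes mast cell protease 4, the other chymase of connective tissue type in the group. It lies 115082 bases beyond Cma1 on chromosome 14, from 56059744 to 56062310. Its level was 6.78 and 6.08 CPM in WT and 2.15 and 2.23 CPM in KO, from 110 and 97 counts and from 40 and 44 counts. The WT libraries were again the higher ones, and the spread within each genotype was small. The difference was -1.55 as log2 (SE 0.31, 95% confidence interval from -2.33 to -0.77), and its edgeR adjusted p was 0.286. KO retained 34.1% of the WT level for Mcpt4 and 34.5% for Cma1.

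Tpsb2 encodes tryptase beta 2, a trypsin-like granule protease stored as a tetramer on heparin. It lies on chromosome 17 from 25366550 to 25368094. It was measured at 41.1 and 35.2 CPM in WT and at 13.3 and 17.2 CPM in KO, from 667 and 561 counts and from 248 and 339 counts. The lower WT library was still above the higher KO library. Its log2 fold change came to -1.32 (SE 0.25, 95% confidence interval -1.95 to -0.69; edgeR adjusted p 0.276). Its neighbour Tpsab1, a related tryptase gene 20987 bases away, gave 15 and 18 counts for WT and 5 and 11 for KO. How reads shared by related tryptase or chymase genes were assigned is not given in the sources used here, so the split between such copies is uncertain.

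Cpa3 encodes carboxypeptidase A3, a zinc exopeptidase that trims peptides after the chymases have cut. The gene lies on chromosome 3 from 20215620 to 20242181 and has 11 exons. Its counts were 484 and 498 for WT and 296 and 377 for KO, or 29.8 and 31.2 CPM against 15.9 and 19.1 CPM. The genotypes were separate, but KO kept 57.4% of the WT level, more than for the other proteases. Cpa3 had a log2 fold change of -0.80 (SE 0.23, 95% confidence interval -1.37 to -0.23; edgeR adjusted p 0.465).

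**Figure D1:**
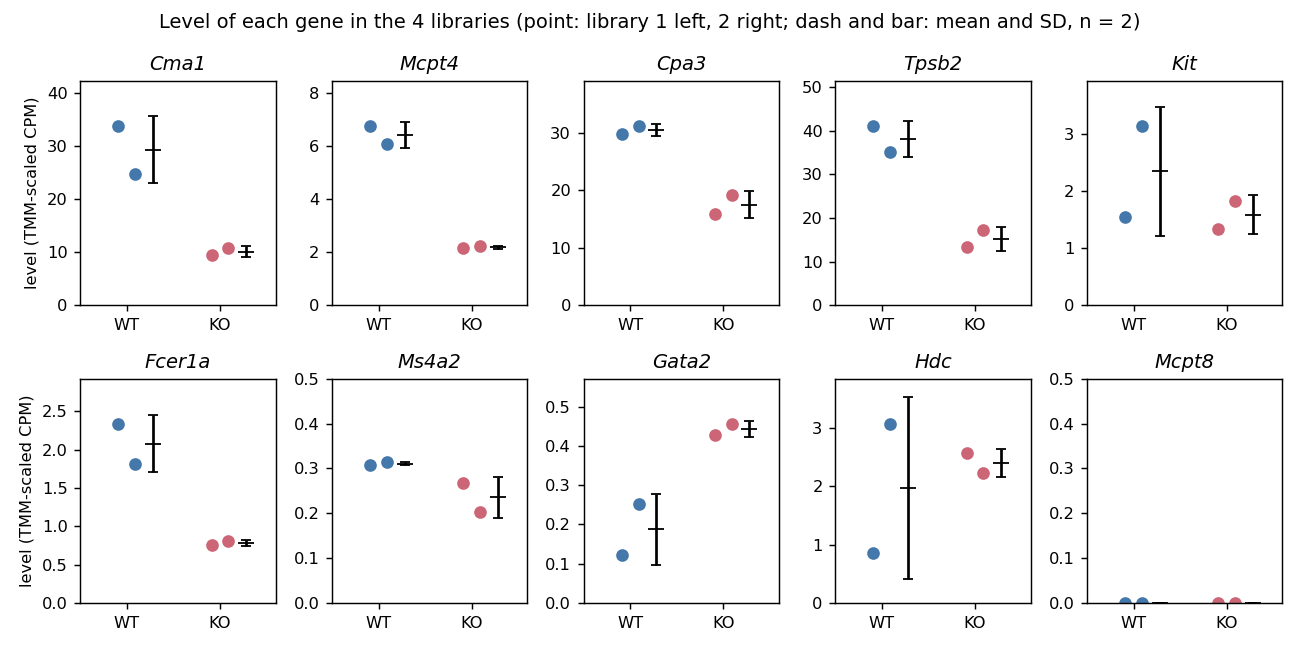
Level of each of the 10 genes in TMM-scaled CPM (y axis, from 0, a separate scale for each gene) in the 2 WT libraries (blue) and the 2 KO libraries (red), with the mean and SD of each genotype (n = 2) as a dash and bar. Cma1, Mcpt4, Cpa3, Tpsb2 and Fcer1a had both KO libraries below both WT libraries. Kit and Hdc overlapped, and Mcpt8 was at 0 in all 4 libraries. With fewer than 10 counts in each library, Gata2 had both KO libraries above both WT libraries, and Ms4a2 had them below.

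The IgE receptor is built from an IgE-binding alpha chain, a signal-amplifying beta chain and a gamma chain shared with other Fc receptors. Fcer1a, the alpha chain gene on chromosome 1, gave 38 and 29 counts for WT and 14 and 16 for KO. These gave 2.34 and 1.82 CPM against 0.751 and 0.812 CPM, without overlap. Fcer1a had a log2 fold change of -1.40 (SE 0.42, 95% confidence interval -2.46 to -0.35; edgeR adjusted p 0.517).

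Ms4a2, the beta chain gene on chromosome 19, gave 5 and 5 counts for WT and 5 and 4 for KO. It was below the filter, and the ratio of KO to WT was 0.755 (exact 95% interval 0.272 to 2.07, counting error only). The interval held both a ratio of 1 and the 0.378 estimated for Fcer1a, so a difference of that size was not detectable at this depth. Fcer1g, the gamma chain gene, is used by macrophages as well. It had 734 and 780 CPM in WT and 555 and 640 CPM in KO, which differ by -0.34 as log2 (SE 0.22; edgeR adjusted p 0.904), and KO held 78.9% of the WT level.

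Kit encodes the receptor tyrosine kinase on which mast cell survival depends, and blood progenitors express it too. The gene lies on chromosome 5 from 75574916 to 75656722 and has 21 exons. Its counts were 25 and 50 for WT and 25 and 36 for KO, or 1.54 and 3.14 CPM against 1.34 and 1.83 CPM. The lower WT library lay between the KO libraries. On the log2 scale the difference was -0.56 (SE 0.49, 95% confidence interval -1.81 to 0.70; edgeR adjusted p 0.952), and it became 0.010 without WT replicate 2, -0.98 without WT replicate 1 and -0.35 without KO replicate 1. Kitl, the gene of its ligand stem cell factor, had 31.3 and 15.6 CPM in WT and 24.6 and 11.8 CPM in KO, with overlapping genotypes.

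Hdc encodes histidine decarboxylase, the enzyme that makes histamine and that activated macrophages can also express. The gene, on chromosome 2, gave 14 and 49 counts for WT and 48 and 44 for KO, or 0.862 and 3.07 CPM against 2.57 and 2.23 CPM. Both KO libraries fell between the WT libraries. Hdc had a log2 fold change of 0.29 (SE 0.64, 95% confidence interval -1.33 to 1.91; edgeR adjusted p 0.979). It was 1.44 without WT replicate 2, -0.35 without WT replicate 1, so its sign rested on the WT libraries.

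Gata2 encodes a zinc-finger transcription factor of mast cells, basophils and early blood progenitors. Its 6 exons lie on chromosome 6 from 88193891 to 88207032. Its counts were 2 and 4 for WT and 8 and 9 for KO, so that the KO libraries were the higher ones. The ratio of KO to WT was 2.38, with an exact 95% interval of 0.894 to 7.36 that covers counting error only and holds 1. The fit without a filter gave a log2 fold change of 1.20 (edgeR adjusted p 0.870). Gata1, a related factor, had 1 count in KO replicate 1 and none elsewhere.

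Mcpt8 encodes mast cell protease 8, which in mice marks basophils despite its name. None of the 4 libraries had a count, and 0 counts leave room for at most 0.152 to 0.188 CPM, depending on the library. It lies 19855 bases beyond Mcpt4 on chromosome 14. Prss34, another basophil protease gene, gave 5 and 6 counts for WT and 5 and 8 for KO, a ratio of 0.992 (exact 95% interval 0.410 to 2.44).

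Other protease genes looked at in the chromosome 14 locus were near 0. Mcpt1 and Mcpt2, chymases of mucosal mast cells, had 1 count in each library numbered 2 and 0 in all libraries, respectively. Mcpt9 had 0 counts throughout. The neutrophil protease gene Ctsg had 1 count, in WT replicate 1, and the lymphocyte protease gene Gzmb had 3 counts in WT replicate 2 and 1 in KO replicate 2. Of the protease genes named so far, Cma1, Mcpt4, Tpsb2 and Cpa3 were those with more than 10 counts in each library.

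Per transcript length, the order of the levels in WT was Tpsb2, Cma1, Cpa3, Mcpt4, Fcer1a, Hdc, Kit, Ms4a2, Gata2 and Mcpt8. In the authors' FPKM values, which scale fragments to transcript length and library size, Tpsb2 stood between 30.7 and 36.3, Cma1 between 21.8 and 30.1, and Cpa3 between 18.8 and 19.4 in WT. Mcpt4 ranged from 5.79 to 6.53 and Fcer1a from 1.11 to 1.44. The other genes reached at most 0.386 FPKM, and Hdc and Kit overlapped there and could not be ordered. In KO, Cpa3 had 11.7 and 12.6 FPKM and Cma1 9.74 and 10.1 FPKM, so the order of these 2 genes was turned in each KO library. Tpsb2 remained the highest, with 13.7 and 15.9 FPKM.

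The comparison of KO with WT asked whether the group differed between the genotypes. To be called, a gene needed an adjusted p under 0.05 together with a log2 fold change beyond 1 in either direction. The edgeR quasi-likelihood test called 0 of the 7 genes tested, as it did for 0% of all 12418 genes. At an unadjusted p under 0.05, 5 of the 7 were lower in KO and 0 were higher, where 1.99% of all genes tested were lower and 4.64% were higher. The same 5 genes had both KO values below both WT values, against 16.9% of all genes tested. A log2 fold change under -1 was found for 4 of the 7, against 2.05% of all genes. The median log2 fold change of the 7 genes was -1.32, compared with 0.04 over all genes tested. These counts describe genes chosen with such results in view and are not a test of the group.

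Other tests on the same counts gave some calls. The DESeq2 Wald test called Cma1, Mcpt4 and Tpsb2, lower in KO, with adjusted p of 0.00191, 0.0314 and 0.00616, and it called 0.362% of all genes in that direction. The edgeR exact test called Cma1 alone (adjusted p 0.0361), where 0.242% of all genes were called lower. With the replicate number as a block, the quasi-likelihood test called Cma1, Mcpt4, Tpsb2 and Fcer1a, where 1.37% of all genes were called lower. The labels do not say what that number marks, so the pairing is not established.

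**Figure D2:**
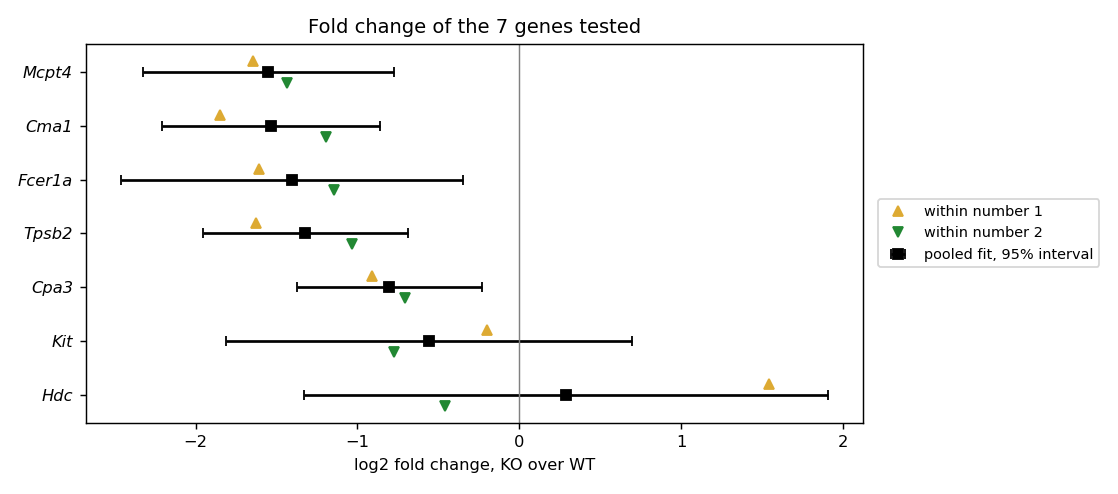
Log2 fold change of KO over WT (x axis) for the 7 genes that passed the filter on low counts, with the 95% confidence interval of the pooled edgeR fit (squares and bars) and the ratios within replicate number 1 and number 2 (triangles). The intervals of Mcpt4, Cma1, Fcer1a, Tpsb2 and Cpa3 lie below 0, and those of Kit and Hdc include 0.

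The libraries also differed by replicate number, so ratios within each number are given beside the pooled values. For number 1, log2 ratios (KO over WT) were -1.85 for Cma1, -1.65 for Mcpt4, -1.63 for Tpsb2, -1.61 for Fcer1a and -0.91 for Cpa3. Within number 2, the values were -1.19, -1.44, -1.03, -1.14 and -0.71 in the same order. All 5 genes were thus lower in KO within each number. Kit was at -0.20 and -0.77, and Hdc at 1.54 and -0.46, so that the sign for Hdc differed between the numbers. With 1 library per genotype in each number, these ratios carry no error.

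Ratios between genes of the same library do not depend on how libraries are scaled. Mcpt4 counts were 20.0% and 24.5% of Cma1 counts in WT and 22.9% and 20.6% in KO, with overlapping exact 95% intervals from 14.5% to 32.4%. Fcer1a counts were 6.92% and 7.32% of those of Cma1 in WT and 8% and 7.48% in KO. These pairs therefore kept a like ratio in the 4 libraries within counting error. Tpsb2 was at 121% and 142% of Cma1 in WT and at 142% and 158% in KO.

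Cpa3 stood apart from this pattern. Its counts were 88.2% of Cma1 counts in WT replicate 1 (exact interval 77.9% to 99.8%) and 126% in WT replicate 2 (110% to 144%). They were 169% in KO replicate 1 (140% to 205%) and 176% in KO replicate 2 (149% to 209%). The KO libraries were the higher ones, by 1.64-fold as a ratio of geometric means, while the WT libraries differed from each other by more than counting error. An exact permutation test of 2 against 2 libraries cannot give a two-sided p under 0.333, whatever the values. The ratios of Kit and Hdc to Cma1 were higher in KO, where Cma1 itself was lower and the levels of Kit and Hdc overlapped with WT, at 14.3% and 16.8% for Kit against 4.55% and 12.6% in WT, and at 27.4% and 20.6% for Hdc against 2.55% and 12.4%.

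**Figure D3:**
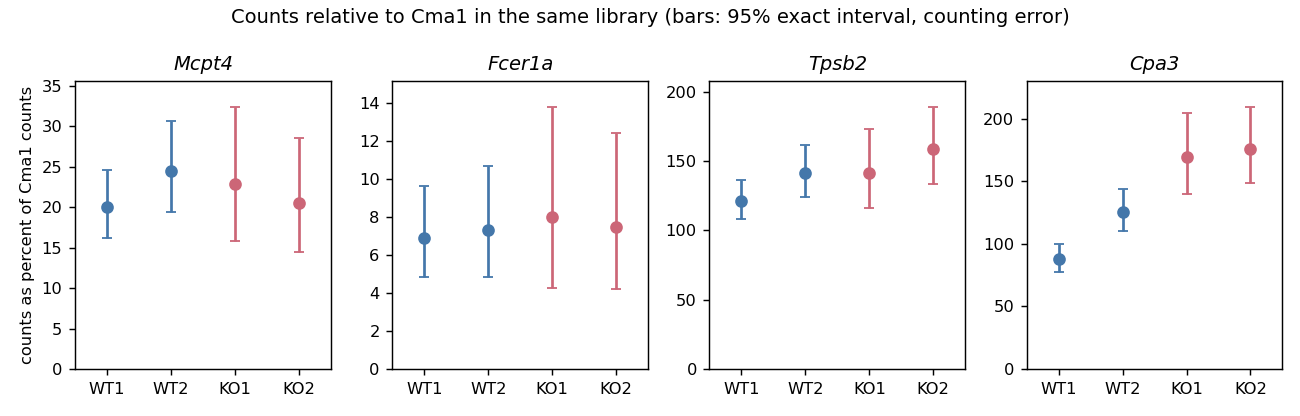
Counts of Mcpt4, Fcer1a, Tpsb2 and Cpa3 as a percentage of Cma1 counts of the same library (y axis, from 0), for each WT (blue) and KO (red) library, with exact 95% intervals for counting error. Mcpt4 and Fcer1a stay level over the 4 libraries, while Cpa3 stands at 88.2% and 126% in WT and at 169% and 176% in KO.

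Other genes known from mast cells or basophils formed a list of 36 symbols, of which 35 were in the table, 7 had no counts and 18 were tested. The quasi-likelihood test called 0 of the 18. At an unadjusted p under 0.05, 2 were lower and 1 was higher in KO, where 1.99% and 4.64% of all genes tested were. The KO values were both below the WT values for 9 genes and both above them for 2, where 16.9% and 20.0% of all genes tested stood so. The median log2 fold change was -0.52, although the summed level of the list hardly differed, at 72.4 and 62.0 CPM in WT and 71.5 and 61.8 CPM in KO. Il3ra, the interleukin 3 receptor chain that macrophages express as well, was the largest part of that sum, with 485 and 526 counts for WT and 730 and 758 for KO.

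Ccr3, a chemokine receptor of eosinophils, basophils and mast cells, gave 29 and 35 counts for WT and 6 and 9 for KO, or -2.33 as log2 fold change (SE 0.47; edgeR adjusted p 0.289). Mrgprb2, the receptor through which basic peptides and drugs activate mast cells of connective tissue, had 23 and 19 counts against 9 and 6 (-1.71, SE 0.51; edgeR adjusted p 0.519). Tpsab1 had a log2 fold change of -1.29, and Tph1, the enzyme for serotonin synthesis in mast cells, one of -0.82. These genes were named for their separation between the genotypes, and so their direction does not bear on that of the granule proteases.

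Other genes of the list were higher in KO, overlapped or differed less. Slc6a4, the serotonin transporter gene, gave 3 and 6 counts for WT and 14 and 22 for KO (log2 fold change 1.71, SE 0.62; edgeR adjusted p 0.679). Il1rl1, the receptor for interleukin 33 on mast cells, had 37 and 50 counts against 44 and 45. Cd200r3, a receptor of mast cells and basophils, had 14 and 12 counts against 11 and 8, a log2 fold change of -0.69 without overlap.

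Genes that carry the signal of the IgE receptor and KIT but also serve macrophages formed another list. Of 26 genes, 25 were tested, 0 were called by the quasi-likelihood test and 0 reached an unadjusted p of 0.05, and the median log2 fold change was 0.06. In 2 genes the KO values were both above the WT values, and in 1, Fcer1g, both below, against 20.0% and 16.9% of all genes tested. Cytokine receptors of mast cell and basophil growth were alike, with 9 of 12 tested, 0 at an unadjusted p under 0.05 and a median of 0.02. Csf2rb, the common beta chain for interleukin 3, interleukin 5 and GM-CSF, had 433 and 693 CPM in WT and 470 and 546 CPM in KO.

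Among 26 genes of granules, histamine and eicosanoids that other myeloid cells share, 21 were tested and 0 were called by the quasi-likelihood test. At an unadjusted p under 0.05, 2 of the 21 were lower and 2 were higher in KO, where 1.99% and 4.64% of all genes were. The KO values were both below the WT values for 6 and both above them for 3, against 16.9% and 20.0% of all genes. Srgn encodes serglycin, the proteoglycan core on which mast cell proteases are stored and which macrophages also make. It had 458 and 703 CPM in WT and 224 and 346 CPM in KO, which is -1.03 as log2 fold change (SE 0.35; edgeR adjusted p 0.643). Vamp8, a SNARE protein of granule exocytosis, had 411 and 288 CPM against 105 and 139 CPM (-1.52, SE 0.31; edgeR adjusted p 0.289). Both genes were lower in the KO libraries, at levels far above those of the mast cell proteases. Ptgs1 and Syt3 were the genes higher in KO at the unadjusted threshold.

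Of 24 transcription factor genes of mast cells, basophils and progenitors, 19 were tested, 0 were called by the quasi-likelihood test and 0 reached an unadjusted p of 0.05. The KO values were both higher than the WT values in 4 of the 19, a share near the 20.0% of all genes tested, and both lower in 0. Meis1 and Zfpm1 had the highest values, with log2 fold changes of 1.27 and 1.15, and Zfpm1 encodes a cofactor of GATA proteins. Mitf, which mast cells require and macrophages also use, had 63.3 and 112 CPM in WT and 74.9 and 110 CPM in KO, with overlap.

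Markers of other cell types differed with the genotype too, and the quasi-likelihood test called 0 genes of these lists. B cell markers summed to 22.3 and 23.4 CPM in WT and 12.0 and 11.4 CPM in KO, and each of the 4 tested had both KO values below the WT values, against 16.9% of all genes. Erythroid and megakaryocyte markers summed to 238 and 160 CPM against 83.2 and 120 CPM, with Pf4 taking most of the sum. Of the 5 tested, 4 were lower without overlap, against the same 16.9%. Eosinophil markers summed to 19.5 and 16.0 CPM against 10.4 and 10.5 CPM, and each of the 4 tested was lower without overlap. The defining eosinophil genes Epx, Prg2, Prg3, Ear1 and Ear6 had no counts in any library.

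Neutrophil markers summed to 79.7 and 118 CPM in WT and 70.2 and 88.3 CPM in KO, with overlap. Csf3r took most of each sum, at 48.1 and 76.2 CPM in WT and 59.6 and 62.1 CPM in KO, which overlap. Of the 7 tested, 3 were lower without overlap, against 16.9% of all genes. These were S100a9 with 91 and 82 counts against 2 and 1, Retnlg with 99 and 71 against 3 and 9, and S100a8 with 235 and 242 against 133 and 209. Mpo and Elane were at 0. T and NK cell markers reached at most 3.88 CPM, with the KO sums below the WT sums. Blood progenitor markers overlapped at 37.2 and 50.7 CPM in WT against 32.8 and 44.3 CPM in KO, with Procr taking most of the sum. Of the 4 tested, Cd34 and Meis1 were higher in KO without overlap and Ly6a was lower. Over all genes tested, 20.0% were higher in this way and 16.9% lower.

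Stromal markers went the other way, with 112 and 110 CPM in WT and 382 and 345 CPM in KO, and 9 of 12 tested had both KO libraries above both WT libraries, against 20.0% of all genes. Cd34, which stromal cells, progenitors and mast cells all express, gave 54 and 46 counts for WT and 190 and 150 for KO. Dendritic cell markers summed to 270 and 383 CPM in WT and to 393 and 425 CPM in KO, with Itgax taking most of the sum. Ccr7, another marker of that list, was the other way round, at 2.59 and 4.89 CPM for WT and 1.88 and 2.23 CPM for KO. Macrophage markers summed to 27956 and 26069 CPM in WT and to 22163 and 25740 CPM in KO. The KO sums were the lower ones, by a small margin in replicate 2. Lyz2 took most of each sum, at 21855 and 18664 CPM in WT and 16857 and 19483 CPM in KO, which overlap. C1qa, C1qb and C1qc were among the 4 of 15 lower without overlap, where 16.9% of all genes were. The 2 entries for Itgam went opposite ways, one at 181 and 124 CPM for WT and 310 and 227 CPM for KO, the other at 108 and 261 CPM for WT and 52.6 and 118 CPM for KO, which overlap. Fewer cells of a type and less RNA per cell cannot be told apart in such bulk samples. The part of these cell types in the values of the mast cell genes was not tested.

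**Figure D4:**
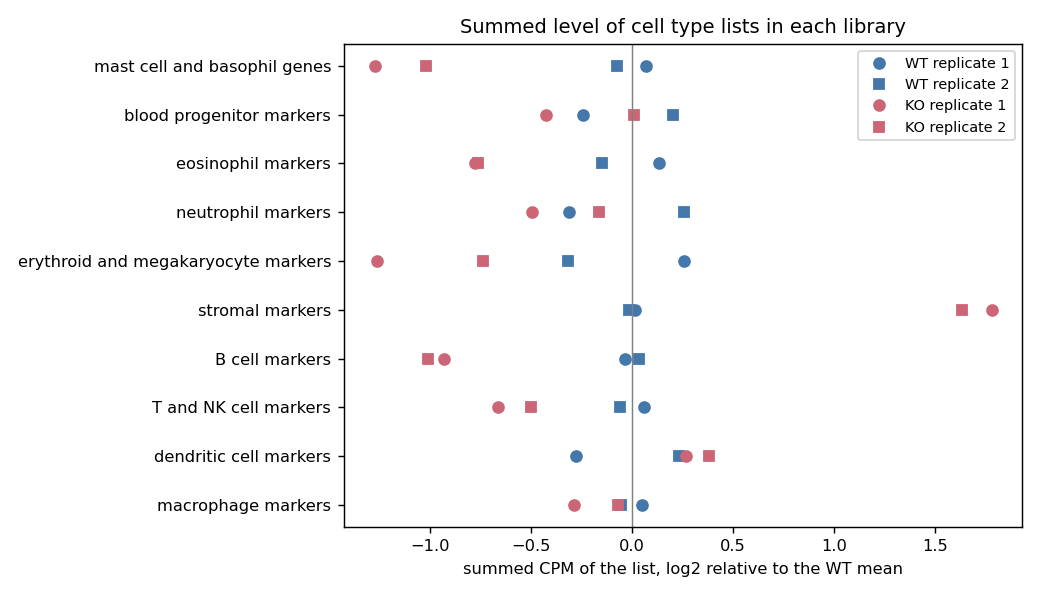
Summed CPM of each cell type list in each library, as log2 relative to the mean of the WT libraries (x axis). Circles and squares are replicates 1 and 2, blue is WT and red is KO. The mast cell and basophil genes and the B cell, T and NK cell, eosinophil, and erythroid and megakaryocyte markers lie lower in both KO libraries. The macrophage sum, which is mostly Lyz2, lies lower by little. Stromal markers and the dendritic cell sum, which is mostly Itgax, lie higher. The neutrophil sum, which is mostly Csf3r, and the blood progenitor sum, which is mostly Procr, overlap.

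The genes most like the group in pattern were sought by the Euclidean distance between log2 CPM values centred over the 4 libraries and the mean centred profile of the 7 genes tested. That mean was 0.34 and 0.57 in WT and -0.54 and -0.37 in KO. The nearest genes outside the group were Aif1 (distance 0.0630), Phf11b (0.118), Iglv1 (0.141), H2-Ob (0.148) and Hnrnpf (0.151). Aif1, a macrophage actin-binding protein gene, gave 92 and 108 counts for WT and 55 and 70 for KO, and H2-Ob is an MHC class II gene of B cells. Within the group, Cpa3 was nearest to the mean at 0.169, followed by Tpsb2 at 0.538, Fcer1a at 0.552, Mcpt4 at 0.657, Kit at 0.714 and Cma1 at 0.764, and Hdc was farthest at 1.79. Hdc, at -1.11, and Kit, at -0.26, lowered the mean in WT replicate 1, so that it stood below that of WT replicate 2, whereas Cma1, Mcpt4, Tpsb2 and Fcer1a were higher in WT replicate 1. The nearest genes were not sought for these 4 alone. Likeness over 4 libraries is a description, since many genes share a profile of so few points.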

How the data were processed

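Total RNA of cultured macrophages was sequenced in 2 WT and 2 KO libraries. Per the labels and methods, the authors filtered reads with Seqtk, aligned them with HISAT2 (2.0.4) and counted fragments per gene with StringTie (1.3.3b). They deposited raw counts with an FPKM value beside each count, for 34745 genes. The submitters' processing notes list mm39, but 27682 of the 34267 gene identifiers shared with GENCODE M21 had identical positions on GRCm38, so positions are given on GRCm38. Strand use is not given in the sources used here, so overlapping genes can share counts.

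The statistics used edgeR 4.0.16 under R 4.3.3. The filter was filterByExpr, with 10 as the minimum count and 15 as the minimum total, leaving 12418 of the 17991 genes with counts. Libraries were scaled by TMM and tested by the quasi-likelihood test with genotype as the only term, two-sided, with Benjamini-Hochberg adjustment over all genes tested. For ratios inside a replicate number, 0.5 was added to each count. Exact 95% intervals are Clopper-Pearson and, like the floor of 3 counts, cover counting error only, as reads carried no molecular identifiers. No library was a copy of another (chi-square over degrees of freedom of 17.1 or more for each pair). The 10 genes and the 14 lists were chosen with earlier results of these data known. Besides the 10 genes and G3bp1, genes named were 10 preset ones, the largest non-overlapping differences of each list (at most 5), and the 5 nearest profiles; other names were chosen after values were seen. On counts simulated with the measured common dispersion, the test recovered 98 of 200 genes changed 4-fold, with 2 false calls. No shared effect of the replicate number was simulated. Alternatives used DESeq2 1.42.0 and limma 3.58.1 on log2(FPKM + pseudocount).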

Additional observations from a re-analysis of the deposited data

How the results depend on the processing

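The count of 0 genes called out of the 10 held without a filter, with a filter on mean CPM (at least 1), with size factors from DESeq2, with limma on FPKM (pseudocount 1 or 0.1), no minimum fold change, each library left out in turn (0 to 0), and library totals with no TMM factor, a setting chosen after seeing the data. Where a library was left out, the lone library of its genotype was assumed to vary like the others. The count was 3 in the DESeq2 Wald test, 1 in the edgeR exact test and 4 with the replicate block. For the genes of the other lists together, the counts were 13, 11 and 24 of 142 tested in these fits, with 4, 4 and 13 of them lower in KO, where 1.46%, 1.40% and 5.35% of all genes were called. For those lists these fits were added after seeing the data, and the count was 0 in the rest. The cause was not tested.

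The median log2 fold change of the genes tested was -0.82 with no filter, which admits Ms4a2 and Gata2, and -0.61 with limma on log2(FPKM + 1), which compresses low values. It ran from -1.46 to -1.15 with a library left out. Library totals moved the median of all genes from 0.04 to 0.20, and the FPKM fits to 0.11 and 0.18. Cma1, Mcpt4, Tpsb2, Cpa3 and Fcer1a kept a negative sign in all 14 fits, with adjusted p from 5.6e-08 to 1.00 for Cma1. Signs reversed for Kit without WT replicate 2 (0.010, range -0.98 to 0.010) and Hdc without WT replicate 1 (-0.35, range -0.35 to 1.44).

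The labels do not say what the replicate number marks, and 2 pairs cannot establish pairing. Deviations of same-numbered libraries correlated at 0.710. With the replicate block, Cma1 (log2 fold change -1.52, edgeR adjusted p 5.6e-08), Tpsb2 (-1.33, 2.56e-06), Mcpt4 (-1.55, 5.62e-05) and Fcer1a (-1.40, 0.0313) were called, where 1.37% of all genes were called lower. Cpa3 had an adjusted p of 0.0132 at -0.81, under the minimum fold change. Counts below 10 limit what can be said of Gata2, Ms4a2 and Mcpt8.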
